A study of Homo sapiens with 15 samples.

Results

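The genes described here are 42 genes of cytokine signalling, taken by symbol from a written list of interleukin, colony-stimulating factor, hormone and interferon receptor chains. One entry of the list, TSLP, encodes a secreted ligand and no receptor, and it is described as a ligand below. Of the 42 genes, 33 were in the knockout table of 17769 genes and all 42 were in the resistance table of 60510 genes. Levels are in CPM, the read count of a gene scaled to the size of its library as normalized by the authors. A gene was tested where its log2 CPM was -1 or more in at least 3 libraries of its table. This held for 33 genes among the knockout libraries and for 31 among those of the resistance experiment. IL2RA and IL5RA were tested in the knockout table only, and 9 genes (CRLF2, CSF2RA, GHR, IL12RB1, IL31RA, IL3RA, IL7R, IL9R and PRLR) were tested in neither.

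The libraries came from K562, a BCR-ABL1-positive cell line from a patient with chronic myeloid leukemia. In the knockout table, 3 libraries of cells that had received Cas9 and a guide against HSP90AA1 (HSP90α, here α-KO) and 3 libraries with a guide against HSP90AB1 (HSP90β, β-KO) stood beside 3 libraries of an empty vector control (EV) labelled wild type and untreated. The labels of these libraries, the control included, describe lentiviral transduction, sorting by a fluorescent marker and monoclonal selection. In the resistance table, 3 libraries of K562 cells kept for a long time in rising amounts of PU-H71, an inhibitor that binds the N-terminal ATP pocket of HSP90 (PUHr), stood beside 3 libraries of cells kept with DMSO, the solvent (parental), and these cells, labelled wild type, were also taken through clone selection. A difference between groups and a difference between clones cannot be told apart in this design. The study calls the 3 libraries of a group independent replicates, without saying whether they came from separate cultures of 1 clone, and the p-values measure the spread between these libraries. In RNA from bulk cells, fewer cells with a transcript and less of it per cell cannot be told apart.

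Cytokine receptors are surface proteins that pair into complexes of a chain that recognises the ligand and a shared chain that carries the signal. Most chains on the list bind JAK kinases, which phosphorylate STAT factors, whereas the IL-1, IL-18 and IL-17 receptors use TIR or related domains and adaptors such as MYD88. In blood formation they set the response to erythropoietin, colony-stimulating factors and interleukins, and in chronic myeloid leukemia BCR-ABL1 activates STAT5 without a bound receptor.

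Each library held between 19594381 and 26216730 reads on genes, and 1 read stood for 0.0381 to 0.0518 CPM. Each targeted gene was lowest in its own knockout. HSP90AA1 was at 704 ± 18.7 CPM in EV, 90.4 ± 2.34 in α-KO and 1206 ± 14.2 in β-KO (SD, n = 3), and HSP90AB1 was at 2806 ± 21.1, 3307 ± 38.8 and 1913 ± 25.1 CPM. The log2 fold change against EV was -2.96 for HSP90AA1 in α-KO and -0.55 for HSP90AB1 in β-KO (adjusted p = 2.64e-30 and 1.34e-15), so that much HSP90AB1 transcript remained in β-KO. In PUHr against parental they had -0.13 and -0.24. Of 14 genes listed as typical of K562, which include EPOR, 13 were tested in each table, and their summed level lay between 1400 and 1515 CPM in the knockout table. It was 3328 to 3392 CPM in parental and 2594 to 2694 in PUHr. Of the 13, HBG2 and HBZ were lower in α-KO (-1.22 and -1.04), none in β-KO by limma (9 at an unadjusted p under 0.05) and ITGA2B in PUHr (-1.11). At an adjusted p under 0.05 alone, 10, 8 and 11 passed in α-KO, β-KO and PUHr, beside 54.2%, 34.4% and 51.4% of all genes. Genes of T cells, B cells, NK cells and monocytes had summed levels of at most 19.5, 7.18, 6.06 and 1.11 CPM in any library, and MS4A1 of the B cell list had 0 reads in the resistance table. Of the B and NK cell genes none was called changed by limma in a comparison with a control, with at most 1 of each list at an unadjusted p under 0.05, and of the monocyte genes VCAN was called in β-KO, with 0 to 1 reads in EV and 17 to 23 in β-KO. The T cell list moved with the knockouts, with 8.61 to 9.64 CPM in EV, 4.36 to 5.49 in α-KO and 17.4 to 19.5 in β-KO. Of its 4 tested genes, 2 were lower in α-KO (CD3E and CD3G), beside 5.01% of all genes. In β-KO 2 were higher (CD3D and CD3G), beside 1.83% of all genes. It reached at most 11.1 CPM in parental and 8.88 in PUHr, where none of its 3 tested genes was called by limma (2 at an unadjusted p under 0.05). The part of these shifts in the receptor results was not tested.

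K562 cells carried transcripts of a broad set of receptor chains. Per kilobase of exon, the highest EV level was that of IL13RA1, a chain of the IL-4 and IL-13 receptor, at 32.0 ± 0.707 CPM per kb (SD, n = 3). IL15RA followed at 20.8 ± 0.537, then the interferon-γ receptor chain IFNGR1 at 17.1 ± 0.744 and the leptin receptor LEPR at 14.3 ± 0.176 CPM per kb, with no overlap of the SDs between neighbours in this order. IL27RA, IL10RA and CSF3R came next at 8.64, 8.43 and 8.07 CPM per kb, and neighbours among these did not differ by more than their SDs. The receptor of erythropoietin, EPOR, stood at 2.11 ± 0.0995 CPM per kb, within the SDs of IL2RG above it and IL6ST below it. At the bottom were CSF2RB, TSLP, IL5RA and IL1RAP, at 0.0555 ± 0.0383, 0.0411 ± 0.0062, 0.0212 ± 0.0116 and 0.0142 ± 0.0088 CPM per kb. Within their SDs CSF2RB could not be told from TSLP, nor IL5RA from IL1RAP.

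In parental cells, in the table normalized on its own, IL27RA led at 22.6 ± 0.318 CPM per kb, before IL13RA1 at 20.1 ± 0.404, LEPR at 15.9 ± 0.073 and IFNGR1 at 10.9 ± 0.254. EPOR came next at 6.23 ± 0.391 CPM per kb and did not differ from IL15RA at 5.93 ± 0.202 by more than the SDs. Among the untested genes, GHR, IL7R and PRLR had at most 3, 2 and 1 reads in a library, IL31RA had 0 reads in parental and 2, 3 and 2 in PUHr, and IL12RB1 had 0 in parental and 1, 2 and 2 in PUHr. CSF2RA, IL3RA, CRLF2 and IL9R were listed at 0 in all 6 libraries. These 4 lie in the regions shared by the X and Y chromosomes. CSF2RA, IL3RA and CRLF2 lie in the larger region, whose 15 protein-coding genes were all listed at 0, among them SLC25A6 and CD99, genes of wide use, so that a 0 there is a listing and not a measured absence. IL9R lies in the smaller region, where 2 of 3 such genes were listed at 0.

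A gene is called changed below where the limma test gave an adjusted p under 0.05 over all genes tested and the log2 fold change was above 1 or below -1. In α-KO against EV, 12 of the 33 tested genes were changed, 7 higher and 5 lower, beside 10.3% of all genes tested (5.32% higher and 5.01% lower). In β-KO against EV, 6 of 33 were changed, 1 higher and 5 lower, beside 4.48% of all genes (1.83% higher and 2.65% lower). Between the knockouts, 12 of 33 differed, 8 higher and 4 lower in α-KO, beside 12.7% of all genes (7.14% and 5.57%). In PUHr against parental, 11 of 31 were changed, 1 higher and 10 lower, beside 10.1% of all genes (5.37% and 4.69%). Some genes would not have met the filter without the libraries of the group where they were highest, and had to differ to be tested. In the knockout table these were CSF2RB, IL5RA and TSLP through α-KO and IL1RAP through β-KO, and in the resistance table CSF2RB, IL12RB2, IL1RAP, IL23R and TSLP through parental. The same holds off the list for IL1A, CSF2, LIF, IFNLR1, IL1RL1 and IL17RD in α-KO, VCAN in β-KO, CSF2 and IL1RL1 in parental and IL17RD and IL1RAPL2 in PUHr. Without these listed genes the counts were 9 of 29 in α-KO (4 higher and 5 lower) and 5 of 29 in β-KO (0 higher and 5 lower). They were 8 of 29 between the knockouts (5 higher and 3 lower in α-KO) and 6 of 26 in PUHr (1 higher and 5 lower). The filter thus fixed part of the split by direction in α-KO and in PUHr.

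The median log2 fold change of the tested genes was close to that of all genes tested: 0.18 against -0.01 in α-KO, -0.06 against 0.00 in β-KO and -0.07 against 0.00 in PUHr. Without the genes that met the filter only through their highest group it was 0.17, -0.06 and 0.07, so the PUHr sign turned. The size of the differences, whatever their sign, had medians of 0.53, 0.32 and 0.44, beside 0.24, 0.15 and 0.21 over all genes. With the genes that met the filter only through their highest group left out, these medians were 0.48, 0.31 and 0.27. At an adjusted p under 0.05 with no fold threshold, 24 of 33 passed in α-KO, 20 of 33 in β-KO, 26 of 33 between the knockouts and 20 of 31 in PUHr, where 54.2%, 34.4%, 59.9% and 51.4% of all genes did. Without the genes tested only through their highest group, 21 of 29, 19 of 29, 22 of 29 and 15 of 26 passed. The libraries of the groups did not overlap for 24, 21, 27 and 23 of the tested genes on the list in the same order, beside 57.3%, 46.6%, 63.8% and 58.5% of all genes tested. With the same genes left out, these counts were 21 of 29, 20 of 29, 23 of 29 and 18 of 26. IL12RB2, IL18RAP and IL23R were changed in α-KO, β-KO and PUHr, each against its own control. Of these, IL12RB2 and IL23R met the filter of the resistance table only through parental. The knockouts share the EV libraries, so their values stand side by side below and are no independent support for each other.

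**Figure D1:**
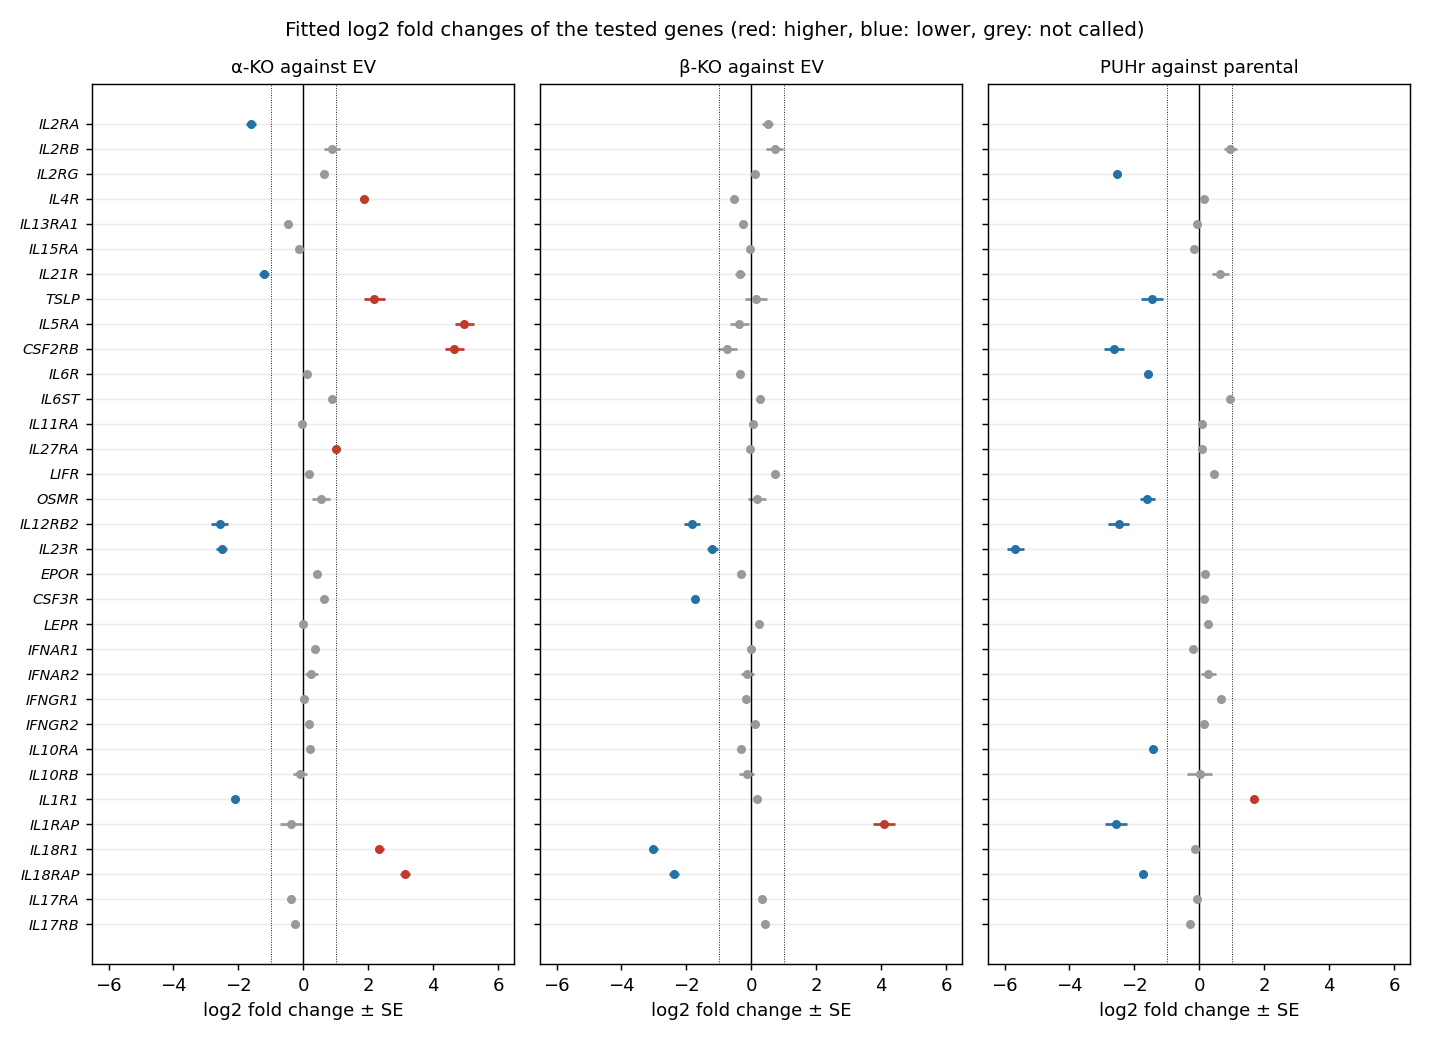
Fitted log2 fold change (point) with its standard error (bar) of every tested gene in 3 comparisons, ordered by receptor family, with dotted lines at -1 and 1. Red and blue points mark the 12, 6 and 11 genes called changed, and in PUHr 10 of the 11 are lower. Without the genes that met the filter only through parental, 5 of 6 are lower in PUHr. The IL23R point in PUHr rests on 0 reads and is no bound.

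All 4 IL-1 and IL-18 receptor genes differed between the 2 knockouts, beside 12.7% of all genes tested. Of these 4, IL1RAP met the filter only through its β-KO libraries. IL18R1 encodes the chain that binds IL-18 and IL18RAP its accessory chain, and both transcripts were high in α-KO and low in β-KO. IL18R1 had 103, 107 and 109 reads in EV, 495, 428 and 517 in α-KO and 12, 11 and 12 in β-KO. The 3 groups did not overlap. Its log2 fold change was 2.34 (SE 0.13, adjusted p = 2.77e-14) in α-KO and -3.02 (SE 0.13, adjusted p = 5.41e-16) in β-KO. IL18RAP had 50, 50 and 68 reads in EV, 400, 429 and 488 in α-KO and 10, 10 and 8 in β-KO, again with no overlap. It rose by 3.13 on the log2 scale in α-KO (SE 0.15, adjusted p = 1.80e-15) and fell by 2.37 in β-KO (SE 0.15, adjusted p = 1.87e-12). Tested against each other, the knockouts differed by 5.35 for IL18R1 and 5.50 for IL18RAP (adjusted p = 2.96e-22 and 5.86e-21).

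In PUHr the IL-18 chains parted. IL18RAP fell from 273, 264 and 213 reads in parental to 78, 82 and 70, a log2 fold change of -1.72 (SE 0.10, adjusted p = 2.51e-09). IL18R1 had 245, 233 and 234 reads in parental and 240, 224 and 205 in PUHr, and its log2 fold change of -0.14 did not pass the test (SE 0.08, adjusted p = 0.142).

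IL1R1, the signalling receptor of IL-1, went the other way from the IL-18 chains. It was at 46.9 ± 1.60 CPM in EV, 10.8 ± 0.607 in α-KO and 52.7 ± 1.34 in β-KO (SD, n = 3), from 1022, 942 and 1229 reads in EV, 218, 198 and 223 in α-KO and 1120, 1253 and 1291 in β-KO. The α-KO libraries lay far below both other groups. The log2 fold change was -2.11 in α-KO (SE 0.05, adjusted p = 1.04e-21) and 0.17 in β-KO (SE 0.05, adjusted p = 0.017), the latter under the fold threshold. In PUHr IL1R1 was the 1 gene of the list called higher past the fold threshold, going from 429, 408 and 369 reads in parental to 1411, 1317 and 1255, a rise of 1.67 on the log2 scale (SE 0.04, adjusted p = 5.62e-13).

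IL1RAP encodes the accessory chain shared by the receptors of IL-1, IL-33 and IL-36. It was near the limit of detection in EV, with 5, 1 and 5 reads, and in α-KO, with 4, 1 and 1, and was read 92, 90 and 88 times in β-KO. The β-KO libraries stood alone above all others. Summed over libraries and scaled by depth, the level in β-KO was 24.0 times that in EV (95% interval 13.2 to 48.6 from counting error only), and limma gave an adjusted p of 3.52e-10. In the resistance table it had 11, 19 and 17 reads in parental and 1 read in each PUHr library, 16.2 times less (95% interval 5.22 to 81.5, limma adjusted p = 1.35e-05).

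IL1R1, IL18R1 and IL18RAP lie in 1 cluster of IL-1 receptor family genes on chromosome 2 of GRCh38, all on the plus strand: IL1R1 at chr2:102064544-102179874, IL18R1 at chr2:102311529-102398777 and IL18RAP at chr2:102418689-102452565. IL1RL1, the IL-33 receptor, is no entry of the list and overlaps the start of the annotated IL18R1 span, at chr2:102311502-102352037, and IL1RL2, which was not tested, lies between IL1R1 and IL1RL1. IL1RL1 had 3 to 5 reads in EV, 137 to 167 in α-KO and 0 to 1 in β-KO, and rose in α-KO by 4.95 on the log2 scale (SE 0.28, adjusted p = 4.58e-14). From these few reads it was also called lower in β-KO (adjusted p = 0.00344), and it fell in PUHr from 22 to 38 reads per library to 5 to 7 (log2 fold change -2.11, SE 0.26, adjusted p = 6.92e-06). The annotated exons of IL18R1 and IL1RL1 share 95 bases, so that a small part of their reads could not be assigned to 1 of them. The 14 tested genes within 2 Mb of IL18R1 that are not on the list stood at a median log2 fold change of 0.01 in α-KO, -0.53 in β-KO and -0.14 in PUHr. The 14 were not all the same genes: NPAS2 was tested in the resistance table only and ENSG00000236525 in the knockout table only. Of the 14, which include IL1RL1 in both tables, 3 were called higher and 1 lower in α-KO, 2 lower in β-KO and 3 lower in PUHr, NPAS2 among these. Of all genes, 10.3%, 4.48% and 10.1% were changed in these comparisons. The part of the β-KO median in the IL-18 receptor values was not tested. The 2 transcripts ENSG00000236525 and ENSG00000234389 lie at least in part inside the annotated IL18RAP span. They had log2 fold changes of 2.38 and 2.62 in α-KO and of -0.94 and -1.83 in β-KO. Whether their reads are separate from IL18RAP transcription was not tested.

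The promoters of these genes are shown because they belong to 1 cluster in which, in α-KO, IL1R1 fell while IL18R1 and IL18RAP rose. Each sequence holds the 250 bases before the RefSeq transcription start on GRCh38.p14, plus strand, 5′ to 3′, and capitals mark AGATAA read on either strand, letters of the site that GATA factors bind. The RefSeq starts of IL1R1 and IL18R1 lie inside the GENCODE spans given above.
IL1R1, chr2:102104354-102104603: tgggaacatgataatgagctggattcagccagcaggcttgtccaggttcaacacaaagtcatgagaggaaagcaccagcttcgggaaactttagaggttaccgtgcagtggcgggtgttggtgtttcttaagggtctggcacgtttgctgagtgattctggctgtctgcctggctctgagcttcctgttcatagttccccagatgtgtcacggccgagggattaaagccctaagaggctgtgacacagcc
IL18R1, chr2:102355546-102355795: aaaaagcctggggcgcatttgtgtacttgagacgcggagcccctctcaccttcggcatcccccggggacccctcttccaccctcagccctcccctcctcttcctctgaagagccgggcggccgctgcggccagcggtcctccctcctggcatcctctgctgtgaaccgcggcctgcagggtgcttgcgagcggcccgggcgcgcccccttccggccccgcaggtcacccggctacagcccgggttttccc
IL18RAP, chr2:102418371-102418620: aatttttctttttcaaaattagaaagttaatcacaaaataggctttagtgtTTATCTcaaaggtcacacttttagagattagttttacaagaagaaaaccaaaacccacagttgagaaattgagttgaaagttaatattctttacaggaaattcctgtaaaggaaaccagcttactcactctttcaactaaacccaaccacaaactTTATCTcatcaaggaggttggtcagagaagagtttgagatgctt
The IL18RAP sequence held 2 such matches and the other 2 sequences held none. Over windows of 300 bases, 250 before and 50 after the start, AGATAA on either strand was found in 10.3% of 35116 promoters and in 6 of the 35 listed genes with a sequence, IL18RAP, IL7R, IL10RA, EPOR, IFNAR1 and IL9R. TTCNNNGAA, the palindrome bound by STAT factors, was in 7.66% of all promoters and in 5 of the 35, LIFR, TSLP, IL15RA, IL10RB and IL3RA. A match is a run of letters and no proof of binding.

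**Figure D2:**
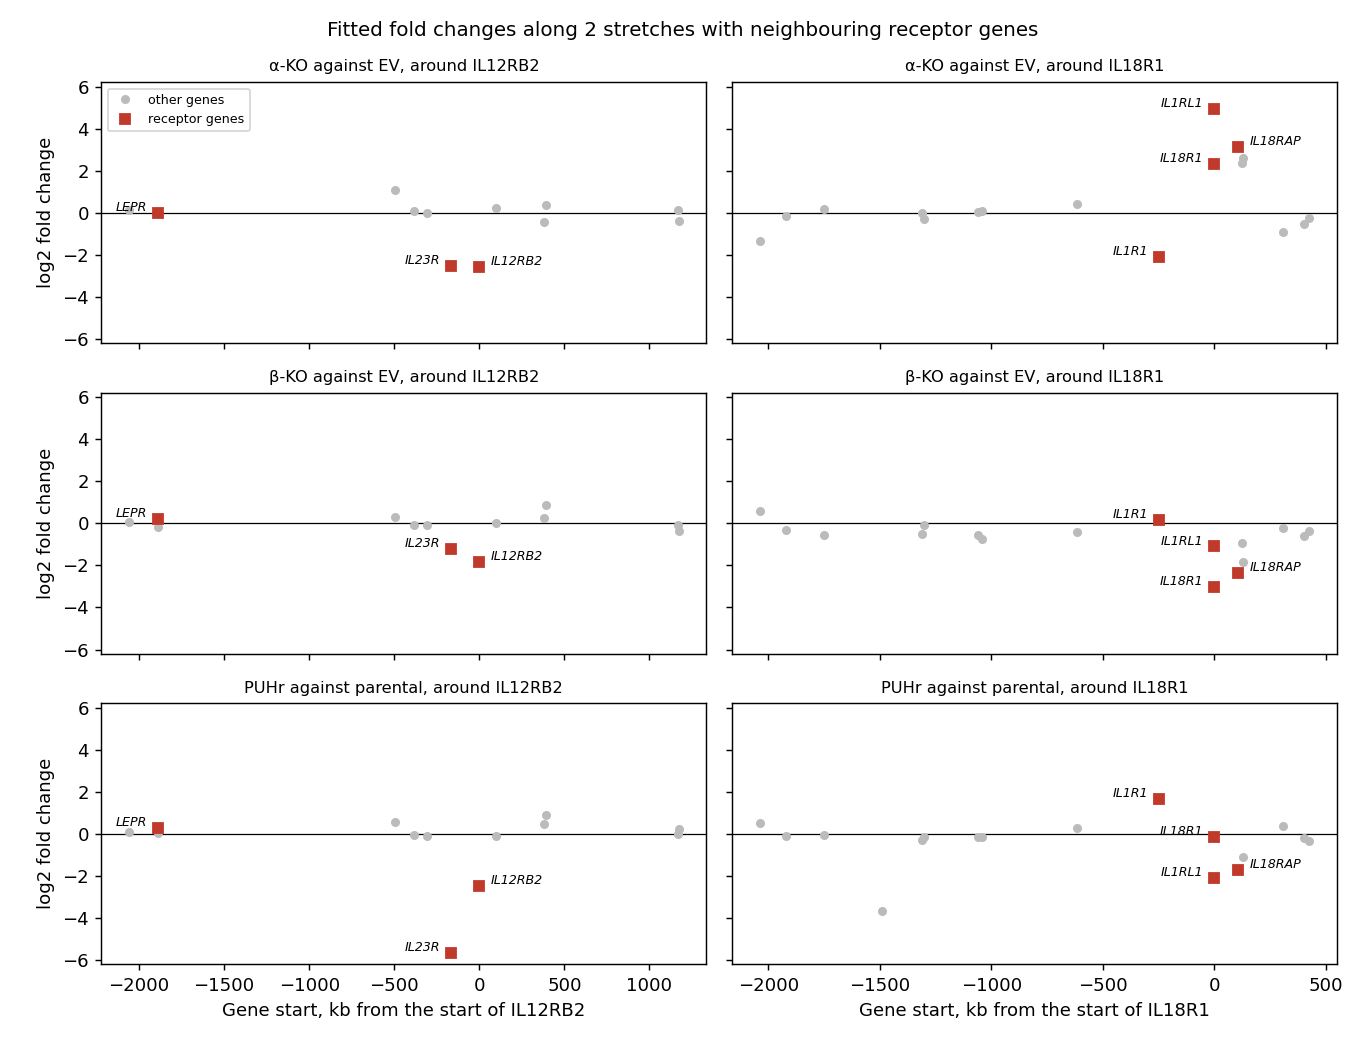
Log2 fold change of every tested gene within 2 Mb of IL12RB2 (left) and IL18R1 (right), against the distance of its start in kb, with receptor genes as red squares and other genes as grey points. In α-KO, IL1RL1, IL18R1 and IL18RAP sit at 4.95, 2.34 and 3.13 while IL1R1 sits at -2.11, and IL23R and IL12RB2 lie below 0 in all 3 comparisons (the IL23R square in PUHr rests on 0 reads and is no bound).

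IL23R and IL12RB2 were lower than the control in both knockouts and in PUHr. IL23R binds IL-23 and IL12RB2 IL-12, and each pairs with IL12RB1, which was not tested here. IL23R had 122, 140 and 146 reads in EV, 24, 16 and 19 in α-KO and 62, 49 and 68 in β-KO, with no overlap of the groups. It fell by 2.51 on the log2 scale in α-KO (SE 0.17, adjusted p = 1.27e-12) and by 1.21 in β-KO (SE 0.17, adjusted p = 2.29e-06), and the knockouts differed by -1.30 (adjusted p = 2.31e-07). In parental cells it had 111, 87 and 96 reads, and in each PUHr library it had 0. With 3 reads per library as the floor, that was at least 33.9-fold lower in PUHr (limma adjusted p = 1.10e-10).

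IL12RB2 had 55, 70 and 81 reads in EV, 13, 5 and 9 in α-KO and 22, 15 and 18 in β-KO. Every α-KO library lay below every β-KO library, and both below EV. The log2 fold change was -2.58 in α-KO (SE 0.26, adjusted p = 3.20e-09) and -1.83 in β-KO (SE 0.26, adjusted p = 2.70e-06). Between the knockouts, its difference of -0.75 (adjusted p = 0.0145) was under the fold threshold. In the resistance table it had 55, 45 and 45 reads in parental and 11, 3 and 10 in PUHr, a log2 fold change of -2.49 (SE 0.32, adjusted p = 1.17e-05). The genes lie in a row on chromosome 1, IL23R at chr1:67138907-67259979 and IL12RB2 at chr1:67307364-67398724. The 10 tested genes off the list within 2 Mb of IL12RB2 had medians of 0.11, -0.02 and 0.05 in α-KO, β-KO and PUHr, and LEPR, on the same stretch, had -0.02, 0.23 and 0.27.

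Of the receptors built on the common β chain, CSF2RB and IL5RA were tested in the knockout table, both through their α-KO libraries. CSF2RB is the β chain shared by the receptors of GM-CSF, IL-3 and IL-5, and IL5RA is the chain that binds IL-5. CSF2RB had 3, 4 and 13 reads in EV, 182, 160 and 157 in α-KO and 2, 4 and 2 in β-KO. IL5RA had 2, 2 and 6 reads in EV, 132, 141 and 131 in α-KO and 1, 2 and 3 in β-KO. For both genes the α-KO libraries stood far above those of EV and β-KO. The fitted log2 fold change in α-KO was 4.65 for CSF2RB (SE 0.30, adjusted p = 4.11e-13) and 4.95 for IL5RA (SE 0.29, adjusted p = 7.95e-14). From summed reads, IL5RA was 46.4 times its EV level (95% interval 24.9 to 97.4, counting error only). Set against β-KO, α-KO was 73.3 times higher for CSF2RB (36.9 to 171) and 79.1 times higher for IL5RA (36.0 to 217).

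In PUHr, CSF2RB went from 29, 27 and 24 reads in parental to 4, 4 and 1, which was 9.21 times less (95% interval 4.62 to 20.9, limma adjusted p = 5.13e-06). IL5RA had 2, 4 and 3 reads in parental and 0, 1 and 1 in PUHr and was not tested there. CSF2RB lies at chr22:36913628-36940439 and IL5RA at chr3:3066324-3126613, and the tested genes within 2 Mb had median log2 fold changes in α-KO of 0.02 (67 genes) and -0.13 (12 genes). CSF2, which encodes GM-CSF, had 0 to 2 reads in EV and 8 to 13 in α-KO (adjusted p = 1.16e-04), and 12 to 16 in parental and 0 to 2 in PUHr (adjusted p = 6.06e-05).

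Of the 10 receptors listed with the common γ chain and TSLP, 7 were tested in the knockout table. IL4R, IL2RA and IL21R were changed in α-KO, 3 of the 7, beside 10.3% of all genes. IL4R, which binds IL-4 and takes part in the IL-13 receptor, had 85, 70 and 95 reads in EV, 286, 274 and 244 in α-KO and 44, 64 and 70 in β-KO. It rose in α-KO by 1.86 (SE 0.12, adjusted p = 9.51e-13), whereas β-KO gave -0.53 (SE 0.12, adjusted p = 0.00137). In parental and PUHr it had 293, 278 and 266 and 335, 327 and 291 reads, a log2 fold change of 0.13 that did not pass the test (adjusted p = 0.113). Its neighbour IL21R, the IL-21 receptor, had 84, 87 and 126 reads in EV, 46, 32 and 32 in α-KO and 63, 80 and 95 in β-KO. It fell in α-KO by 1.20 (SE 0.15, adjusted p = 2.54e-07), and its 17, 12 and 13 reads in parental and 19, 23 and 30 in PUHr gave 0.65 (SE 0.25, adjusted p = 0.0447). Of the annotated exon bases of IL21R, 23.3% also belong to IL21R-AS1 on the opposite strand, with at most 1 read in the resistance table, and the strand setting of the counting is not given, so its reads may hold some of that RNA. IL4R and IL21R start 88.5 kb apart, at chr16:27313668-27364778 and chr16:27402174-27452042, and none of the 31 tested genes off the list within 2 Mb of IL4R was changed in α-KO.

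IL2RA encodes CD25, the chain that raises the affinity for IL-2. It had 88, 109 and 151 reads in EV, 34, 22 and 41 in α-KO and 149, 166 and 184 in β-KO. The α-KO libraries were the lowest, with a log2 fold change of -1.61 (SE 0.16, adjusted p = 4.20e-09), while that of β-KO was 0.50 (SE 0.16, adjusted p = 0.0182). The knockouts differed by -2.11 (adjusted p = 1.48e-11). In the resistance table it had 5, 1 and 4 reads in parental and 0, 0 and 1 in PUHr and was not tested. IL15RA, its neighbour on chromosome 10, had log2 fold changes of -0.14 in α-KO and -0.05 in β-KO.

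IL2RG, the common γ chain of the receptors of IL-2, IL-4, IL-7, IL-9, IL-15 and IL-21, was changed in PUHr. It had 357, 358 and 320 reads in parental and 64, 64 and 54 in PUHr, and fell by 2.52 on the log2 scale (SE 0.09, adjusted p = 1.67e-11). In the knockout table it had 122, 125 and 184 reads in EV, 223, 170 and 190 in α-KO and 152, 156 and 163 in β-KO. The α-KO value of 0.64 (SE 0.10, adjusted p = 8.37e-06) was under the fold threshold, and that of β-KO was 0.11 (adjusted p = 0.43). Of the annotated exon bases of IL2RG, 51.3% also belong to a readthrough gene on the same strand, listed at 0 reads in the resistance table, so that reads from those bases may have been lost to both. The 27 tested genes off the list within 2 Mb had a median of -0.34 in PUHr. IL2RB, the β chain of the IL-2 receptor, had values of 0.88, 0.72 and 0.95 in α-KO, β-KO and PUHr (adjusted p = 0.00551, 0.033 and 0.00142), and IL13RA1 had -0.48 in α-KO (adjusted p = 7.42e-12), where the 33 tested genes off the list within 2 Mb had a median of -0.72.

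TSLP, a cytokine of epithelial cells whose receptor is CRLF2 with IL7R, had 4, 3 and 5 reads in EV, 25, 25 and 17 in α-KO and 4, 3 and 8 in β-KO. The α-KO libraries stood above the rest, 6.41 times the EV level from summed reads (95% interval 3.44 to 13.0, limma adjusted p = 2.91e-06). It had 18, 10 and 24 reads in parental and 4, 7 and 4 in PUHr, 3.59 times less (95% interval 1.99 to 6.87, limma adjusted p = 0.00245). With no filter on low values the PUHr call was lost (adjusted p = 0.118).

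**Figure D3:**
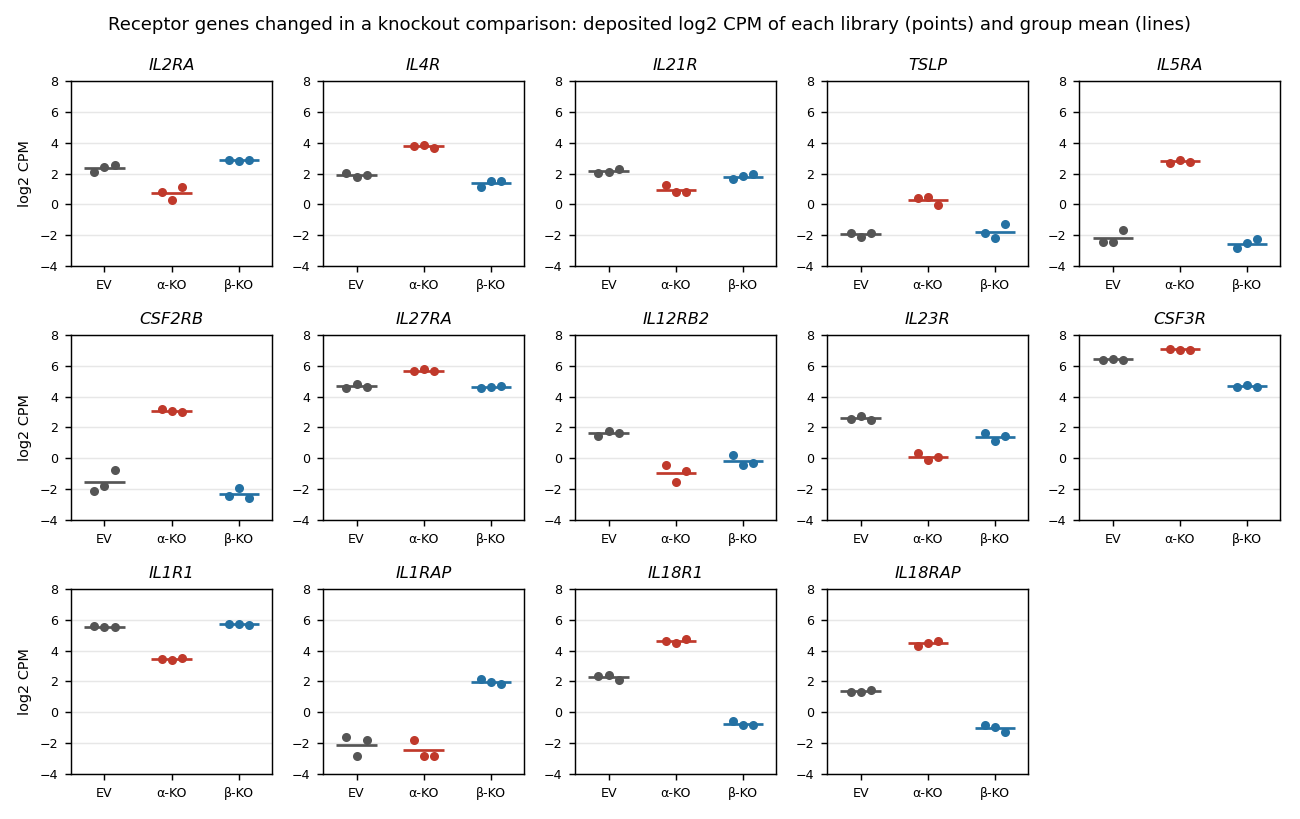
Deposited log2 CPM of each EV, α-KO and β-KO library (points) and the group mean (lines) for the 14 genes changed in a knockout comparison. IL18R1 and IL18RAP are high in α-KO and low in β-KO, CSF2RB, IL5RA and TSLP are highest in α-KO, and IL1RAP is highest in β-KO.

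Receptors of the gp130 family answer to IL-6, IL-11, LIF, oncostatin M and IL-27, and 6 of the 7 listed were tested in each table. IL27RA, the IL-27 receptor chain, had 499, 585 and 645 reads in EV, 1034, 1049 and 979 in α-KO and 483, 579 and 648 in β-KO. Its log2 fold change of 1.02 in α-KO (SE 0.06, adjusted p = 8.20e-14) was just past the fold threshold. Without EV replicate 1, EV replicate 3 or α-KO replicate 2 it was 0.97, 1.00 and 0.98, under that threshold. In parental and PUHr it had 1600, 1590 and 1402 and 1752, 1647 and 1585 reads (log2 fold change 0.07, adjusted p = 0.0955).

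IL6R, the chain that binds IL-6, and OSMR, the oncostatin M receptor, were changed in PUHr. IL6R had 204, 220 and 166 reads in parental and 65, 65 and 71 in PUHr, a fall of 1.57 on the log2 scale (SE 0.12, adjusted p = 3.61e-08). In the knockout table it had 177, 177 and 224 reads in EV, 178, 199 and 172 in α-KO and 132, 148 and 187 in β-KO. The ligand IL6 rose in PUHr from 23 to 31 reads per library to 175 to 217, by 2.71 (SE 0.14, adjusted p = 4.29e-10). OSMR had 92, 87 and 62 reads in parental and 35, 30 and 16 in PUHr, a log2 fold change of -1.60 (SE 0.22, adjusted p = 2.75e-05), and 28, 10 and 23 in EV, 28, 28 and 19 in α-KO and 18, 27 and 22 in β-KO, where it was not changed. Its exons share 229 bases with RICTOR on the opposite strand.

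IL6ST encodes gp130 itself, the chain through which these receptors signal. Its log2 fold change was 0.90 in α-KO (SE 0.05, adjusted p = 1.77e-14), 0.25 in β-KO (SE 0.05, adjusted p = 2.01e-04) and 0.94 in PUHr (SE 0.04, adjusted p = 8.88e-11), under the fold threshold each time. Its reads were 931, 881 and 825 in parental and 1790, 1833 and 1619 in PUHr, so that gp130 and the ligand-binding chain IL6R lay on opposite sides of the control. LIFR, the LIF receptor, had 0.18, 0.72 and 0.44 (adjusted p = 0.0136, 2.05e-10 and 3.67e-07), and IL11RA, with 32.5% of its exon bases shared with a readthrough gene, passed no test.

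Single-chain receptors form pairs of the same molecule around erythropoietin, G-CSF, leptin, growth hormone or prolactin. CSF3R, the G-CSF receptor of the granulocyte lineage, had 1783, 1825 and 2200 reads in EV, 2849, 2524 and 2530 in α-KO and 507, 637 and 626 in β-KO. The groups did not overlap, and the level went from 85.5 ± 2.15 CPM in EV to 25.4 ± 1.59 in β-KO (SD, n = 3). It fell by 1.75 on the log2 scale in β-KO (SE 0.04, adjusted p = 9.29e-21), whereas α-KO gave 0.64 (SE 0.04, adjusted p = 2.55e-12), and the knockouts differed by 2.39 (adjusted p = 8.47e-25). With 317, 282 and 233 reads in parental and 338, 307 and 303 in PUHr, its value of 0.15 did not pass the test (adjusted p = 0.145). CSF3R lies at chr1:36466043-36483278, and the 44 tested genes off the list within 2 Mb had a median of 0.02 in β-KO, with none of them changed.

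EPOR, the receptor of the erythroid lineage to which K562 cells belong in part, had 129, 137 and 176 reads in EV, 190, 168 and 157 in α-KO and 97, 123 and 146 in β-KO. Its log2 fold change was 0.41 in α-KO (SE 0.10, adjusted p = 0.00149) and -0.31 in β-KO (SE 0.10, adjusted p = 0.0212), both under the fold threshold, and the knockouts differed by 0.73 (adjusted p = 1.11e-06). It had 483, 456 and 384 reads in parental and 501, 567 and 461 in PUHr, which overlapped (log2 fold change 0.16, adjusted p = 0.0763). LEPR had values of -0.02, 0.23 and 0.27 in α-KO, β-KO and PUHr (adjusted p = 0.635, 1.41e-06 and 2.07e-07).

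All 6 interferon and IL-10 receptor chains were tested in each table, and IL10RA in PUHr was the 1 call among them over the 4 comparisons. Of all genes, 10.3%, 4.48%, 12.7% and 10.1% were changed in α-KO, β-KO, between the knockouts and in PUHr. Counts of 0 or 1 among 6 genes lie near these shares. IL10RA, which binds IL-10, had 726, 701 and 572 reads in parental and 271, 251 and 242 in PUHr, and fell by 1.43 on the log2 scale (SE 0.06, adjusted p = 1.16e-10). In the knockout table it had 1517, 1639 and 1891 reads in EV, 1822, 1641 and 1624 in α-KO and 1311, 1408 and 1414 in β-KO, with log2 fold changes of 0.21 and -0.32 (adjusted p = 3.96e-04 and 2.43e-06). IFNGR1 reached 0.65 in PUHr (SE 0.04, adjusted p = 1.54e-08) and 0.01 and -0.17 in α-KO and β-KO (adjusted p = 0.83 and 0.00285). IFNAR1, a chain of the type I interferon receptor, had 0.35, -0.02 and -0.19 (adjusted p = 2.21e-07, 0.729 and 5.69e-04). In each comparison IFNAR2, IL10RB and IFNGR2, which lie with IFNAR1 in a row on chromosome 21, passed no test, with values against the controls between -0.15 and 0.27.

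Both IL-17 receptor chains passed the adjusted p alone in α-KO and β-KO, as did 54.2% and 34.4% of all genes. The signs in the knockouts were opposite: IL17RA had -0.38 in α-KO and 0.32 in β-KO (adjusted p = 1.58e-05 and 2.66e-04), and IL17RB had -0.25 and 0.42 (adjusted p = 0.0301 and 9.53e-04). In PUHr IL17RB had -0.28 (adjusted p = 0.0167) and IL17RA -0.07 (adjusted p = 0.28).

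**Figure D4:**
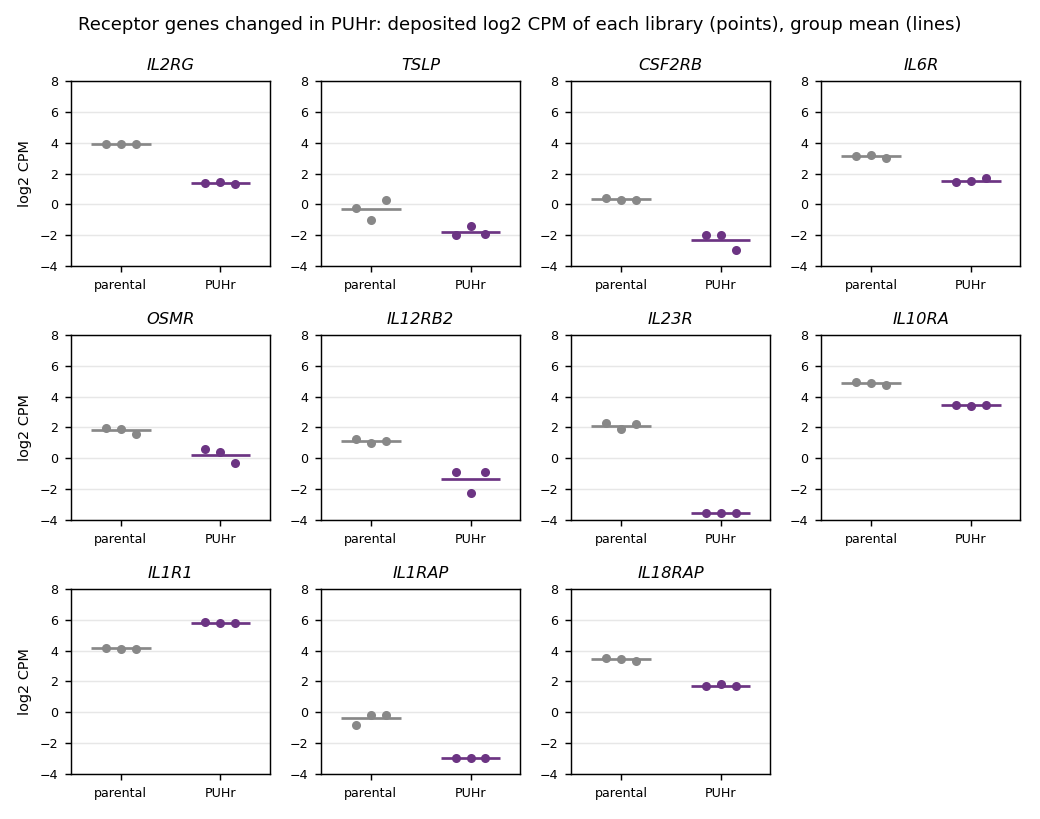
Deposited log2 CPM of each parental and PUHr library (points) and the group mean (lines) for the 11 genes changed in PUHr. Of these 11, IL1R1 is the gene that is higher in PUHr, and the 3 PUHr points of IL23R lie at the value that stands for 0 reads.

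Downstream of the receptors, the JAK kinases and STAT factors did not pass the fold threshold. Of 12 listed, 10 were tested in each table, and 0 were changed in any of the 4 comparisons by limma, beside 10.3%, 4.48%, 12.7% and 10.1% of all genes in α-KO, β-KO, between the knockouts and in PUHr, so that a count of 0 among 10 genes is near the background. In the same order 10, 4, 9 and 1 passed the adjusted p alone, beside 54.2%, 34.4%, 59.9% and 51.4% of all genes, and 10, 4, 9 and 2 an unadjusted p under 0.05. The value furthest from 0 against EV was that of IRF9 in α-KO, at -0.56 (SE 0.19, adjusted p = 0.0135). STAT6, the factor used by IL-4, had -0.34 in PUHr (adjusted p = 1.76e-06).

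Among 20 inhibitors of receptor signalling, 2 were changed in α-KO, 0 in β-KO and 2 in PUHr, near the shares over all genes (10.3%, 4.48% and 10.1%). PTPRC, the phosphatase CD45 that acts on JAK kinases, fell by 2.40 in α-KO and rose by 1.33 in PUHr, and PTPN6, the phosphatase SHP-1, fell by 1.82 in PUHr (adjusted p = 6.86e-27, 4.53e-14 and 2.78e-06). CBLB, a ubiquitin ligase, rose by 1.07 in α-KO (adjusted p = 2.79e-12). In β-KO 7 of the 20 passed the adjusted p alone in limma, near the 34.4% of all genes, and 8 an unadjusted p under 0.05. Of 18 adaptors, 2 were changed in α-KO, 0 in β-KO and 1 in PUHr, again near or below those shares. IRS1, an adaptor of the IL-4 and insulin receptors, fell by 3.32 in α-KO and rose by 2.12 in PUHr (adjusted p = 6.38e-18 and 2.82e-11), and IRAK1, a kinase downstream of the IL-1 and IL-18 receptors, fell by 1.28 in α-KO (adjusted p = 1.47e-18). In β-KO 7 of the 18 adaptors passed the adjusted p alone in limma, also near the 34.4% of all genes, and the same number an unadjusted p under 0.05. Between the knockouts PTPRC, IRS1, IRAK1 and GAB1 were lower and USP18 higher in α-KO, by -2.47, -4.06, -1.48, -1.36 and 1.07 (adjusted p = 2.90e-27, 4.38e-20, 3.72e-20, 1.93e-12 and 0.00257).

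Of 47 cytokine ligands, 14 were tested in the knockout table, and 6 were higher and 1 lower in α-KO, beside 5.32% and 5.01% of all genes, with a median over the 14 of -0.07. Of the 6, IL1A, CSF2 and LIF met the filter only through α-KO and had to be higher there to be tested. LIF, which keeps stem cells undifferentiated and binds LIFR with gp130, was at 0 reads in all EV libraries and at 13 to 17 in α-KO, and it was tested only because it was high there. CSF2, given above, was higher, as were IL18 at 1.55 (adjusted p = 1.04e-05) and IL1A, a ligand of IL1R1, at 1.40 (adjusted p = 0.00401), while IL32 was lower at -1.12 (adjusted p = 0.00447). In β-KO 3 were higher, beside 1.83% of all genes, the NK cell growth factor IL15 at 1.57, IL32 at 1.40 and IL16 at 1.14 (adjusted p = 8.70e-06, 0.00104 and 0.00233). IL15 and IL16 were also among the 6 higher in α-KO, at 1.03 and 1.11 (adjusted p = 7.40e-04 and 0.00163). In PUHr 4 of 11 were higher and 2 lower, beside 5.37% and 4.69% of all genes. IL6, IL16 at 2.46, IL15 at 1.41 and CSF1 at 1.08 were higher (limma adjusted p = 4.29e-10, 7.92e-13, 8.68e-05 and 4.38e-08). CSF2, tested only through parental, and IL23A at -1.04 were lower (limma adjusted p = 6.06e-05 and 0.00751). IL18, whose receptor chains were both high in α-KO, had 8 to 12 reads in EV and 24 to 34 in α-KO.

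Of 24 further cytokine receptor chains outside the list, 11 were tested in the knockout table and 4 were higher in α-KO, 3 of them tested through α-KO only, beside 5.32% of all genes: IL1RL1, the stem cell factor receptor KIT at 2.04, IFNLR1 at 1.91 and IL17RD at 1.57 (adjusted p = 4.58e-14, 5.08e-19, 1.08e-04 and 3.53e-04). In β-KO 2 were lower, beside 2.65% of all genes, IL1RL1 and IFNLR1, the latter with 3 to 10 reads in EV and 0 to 1 in β-KO (adjusted p = 0.00122). In PUHr 3 of 12 were changed, beside 10.1% of all genes, and all 3 met the filter only through the group where they were highest. IL1RL1, tested through parental, was lower, and IL17RD, tested through PUHr, was higher at 1.91 (limma adjusted p = 5.58e-06). IL1RAPL2 went from 1 to 3 reads in parental to 45 to 58 in PUHr, the group through which it was tested.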

How the data were processed

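K562 libraries from polyadenylated RNA were prepared with a stranded kit and sequenced with single reads of 76 bases. Per the submitters' processing notes, reads were handled with FastQC, MultiQC, STAR, featureCounts and edgeR on hg38 (GRCh38), with versions and the strand setting of the counting not given in the sources used here. The authors deposited log2 CPM of each library, normalized with a prior count of about 2 reads, in 2 tables normalized separately. Column names spelled DSMO were read as the DMSO control.

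From these values, whole reads per gene and library were recovered, with a deviation of at most 0.00132 reads from a whole number. Reads assigned to no gene identifier, 0.027% to 0.0363% per library, were left out, and 0 columns of samples were left unused. The methods describe a count test, but the deposited unit is log2 CPM, so limma 3.58.1 in R 4.3.3 (lmFit, eBayes with trend) was used, with 1 fit over the 9 libraries of the knockout table and 1 over the 6 of the resistance table, two-sided, with Benjamini-Hochberg adjustment over all 17039 and 16503 genes that passed the filter. SE is the standard error of the fitted log2 fold change, which understates the change of genes with few reads. The test was checked on simulated data with a fixed spread, with changes planted only in genes above a minimum mean read count. That check does not cover the genes with the fewest reads. Lengths and positions are from GENCODE 44 (merged exons), promoters from RefSeq on GRCh38.p14. Intervals of ratios are exact (Clopper-Pearson on the split of summed reads, 95%) and cover counting error only, as reads had no molecular identifiers.

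The genes and lists were chosen with earlier results of these data known. By rule, genes changed in at least 1 of 4 comparisons, CSF2RB and EPOR are given by library, other genes by their fitted values, and of the further lists at most 5 changed genes per comparison. The ligands IL15 and IL16 in α-KO and IL23A in PUHr are given beyond these 5. Libraries of 1 group differed by more than sampling noise (chi-square per degree of freedom 1.15 to 4.23). Alternatives changed the filter, the added CPM, the scaling, the trend, the weights (voom on recovered reads), the fold threshold, the libraries and the block. A search for protein motifs was not run.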

Additional observations from a re-analysis of the deposited data

How the results depend on the processing

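The counts of changed receptor genes were 12 in α-KO, 6 in β-KO, 12 between the knockouts and 11 in PUHr, and none of the 41 calls reversed under any alternative run. With 5 CPM added they fell to 6, 1, 7 and 3, since this value is above the level of many of these genes, and with no fold threshold they were 24, 20, 26 and 20. Where the filter asked for a mean of at least 1 in log2 CPM, 8, 4, 8 and 6 genes were called, with fewer genes tested. Over the 384 values of the calls under alternatives that kept every library, 34 were no longer past the threshold, 33 of them with 1 or 5 CPM added. With 1 CPM added, TSLP, IL21R and IL27RA in α-KO and IL23R in β-KO fell under the fold threshold. The same held for TSLP and IL23R between the knockouts and for TSLP, IL1RAP and CSF2RB in PUHr. The 2 scalings tried, quantile normalization and median centring, voom and the fit without a trend gave the same counts, and no scaling moved the median of all genes by more than 0.1 on the log2 scale.

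Leaving out 1 library gave 11 to 13 genes in α-KO, 6 to 7 in β-KO, 12 between the knockouts and 11 to 12 in PUHr. IL27RA lost its α-KO call as given above. IL2RB gained a call in α-KO without EV replicate 3 (1.10) or α-KO replicate 3 (1.04) and in PUHr without parental replicate 1 (1.10), parental replicate 3 (1.03) or PUHr replicate 2 (1.04), and CSF2RB gained one in β-KO without EV replicate 1 (-1.01). The replicate numbers did not pair the libraries (correlations of deviations -0.18 to 0.10), and the fit with a replicate block gave 12, 6, 12 and 11 genes. At this depth genes with a few reads per library have wide counting intervals, and the fitted fold changes of IL23R in PUHr and of other genes near that level depend on the prior count.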
